A study of Mus musculus with 8 samples.

Results

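The 10 genes described here are Lin28a, Lin28b, Trim71, Drosha, Dgcr8, Dicer1, Xpo5, Ago2, Zcchc11 and Tarbp2, chosen by name from the 32567 genes of an RNA-seq count table. They comprise the Lin28 pair with Trim71 and 7 genes whose products act on a microRNA (miRNA) or its precursors along the route from primary transcript to Argonaute complex. All 10 were found, and all 10 passed the expression limit of a log2 CPM above 0 averaged over the 4 libraries, which 15492 genes passed, where CPM are counts-per-million of the scaled library total. The samples were mouse embryonic stem cells (ESC), grown with leukemia inhibitory factor, and their progeny after retinoic acid treatment (RA-DIFF). Both stages came from 1 wild-type line and 1 line carrying the Hdh ex4/5 null allele of the huntingtin gene Htt on both chromosomes (Htt-null). ESC were taken off feeder cells for 4 passages, and then formed into embryoid bodies, which were cultured for 8 days with 5 µM retinoic acid from day 4. The dissociated cells were collected 2 hours after plating. The line and the allele cannot be told apart. Poly-A RNA and small RNA were sequenced with 1 library per condition, 8 in all, so no replicate spread exists within a condition. The conditions were not tested against a measured spread, and each ratio below compares 2 libraries. An exact test with an assumed dispersion served only as an alternative rule for calls.

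MicroRNAs are cut from long primary transcripts by the DROSHA and DGCR8 complex in the nucleus, exported as hairpins by Exportin 5 and cut again by DICER1 with its partner TARBP2 before 1 arm is loaded onto an Argonaute protein such as AGO2. LIN28A and LIN28B are RNA-binding proteins of early embryonic cells. They bind let-7 precursors, and LIN28A recruits the terminal uridylyltransferases ZCCHC11 and ZCCHC6, after which the uridylated precursors are degraded. The let-7 miRNAs in turn repress Lin28a, Lin28b and Trim71, a ubiquitin ligase and RNA-binding repressor of stem cells, and mature let-7 is known to accumulate as ESC differentiate.

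Total counts ranged from 63617410 to 110569127 in the 4 RNA-seq libraries and from 11976744 to 25656673 in the 4 small RNA libraries. In the RA-DIFF pair of RNA-seq libraries the genotype labels were contradicted. Htt, the targeted gene, had 14385 counts in wild-type and 7260 in Htt-null ESC, a log2 ratio of -0.58, but 8212 counts in the wild-type-labelled RA-DIFF library and 9722 in the library labelled Htt-null, a log2 ratio of 0.43. The listing of expression values by gene that accompanies the study also carries these RA-DIFF libraries under exchanged names: of 1396 genes in its readable part, 1382 listed wild-type values lay nearer to the deposited library labelled Htt-null, whereas 1383 listed wild-type ESC values lay nearer to the wild-type ESC library. None of the 10 genes is in that readable part. The RA-DIFF libraries are therefore named by their deposited labels throughout. If the labels are exchanged, every RA-DIFF genotype ratio keeps its size and changes its sign. The small RNA libraries hold no targeted gene to check, but their RA-DIFF labels also run against the study's material. It lists 22 miRNAs by their direction with the null allele, and of the 11 that were past a log2 ratio of 0.75 between the RA-DIFF libraries here, 0 had the listed direction and 11 the opposite one. Of the other 11, all past that ratio between the ESC libraries alone, 11 had the listed direction. Matching an RA-DIFF RNA-seq library with a small RNA library rests on the labels. As labelled, the RA-DIFF comparison of Htt-null with wild type gave mixed signs: the stem cell miRNAs of the miR-290 and miR-302 clusters had median log2 ratios of 1.35 and -1.15 and neural miR-9-5p one of 1.13, beside medians of -2.72 for the pluripotency and -1.25 for the neuron marker mRNAs described next.

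The markers fitted the stage labels in the main. The 10 pluripotency markers summed to 6262 and 5371 CPM in wild-type and Htt-null ESC, with none at 0, and to 276 and 229 CPM in the RA-DIFF libraries labelled wild type and Htt-null. Sox2 alone held 213 and 212 CPM of these RA-DIFF sums, which therefore say little about the other pluripotency markers. The RA-DIFF libraries differed in make-up. The 12 fibroblast and mesenchyme markers summed to 711 and 2665 CPM, and the Htt-null label had the higher level for 12 of 12. Summed levels of 10 neuron markers were 2857 and 1321 CPM, with 1 of 10 higher under the Htt-null label, and those of 8 neural progenitor markers were 3863 and 5154 CPM, with 4 of 8 higher. Vim alone held 1712 and 2906 CPM of the neural progenitor sums, and the median log2 ratio of these 8 markers was -0.37. Pluripotency markers had a median log2 ratio of -2.72 between these libraries, with 1 of 10 higher. The 6 endothelial markers summed to 23.9 and 88.6 CPM, with 5 of 6 higher, and Kdr alone held 17.9 and 71.7 CPM. The 8 endoderm markers summed to 18.8 and 59.6 CPM, with 5 of 8 higher and a median log2 ratio of 0.36. Dab2 alone held 12.3 and 42.8 CPM of the endoderm sums. The part of these differences in the results below was not tested, and in bulk RNA fewer cells of a type and less RNA per cell cannot be told apart.

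The sequences that link the members to let-7 are given first. Of the 1073 miRNAs in the small RNA table, 907 were matched to RefSeq by name, and 9 of these share the seed GAGGUAG, bases 2 to 8 of the mature miRNA. The 9 are the let-7 5p arms and miR-98-5p, printed from RefSeq (GRCm38) with the seed in capitals, together with let-7j, whose seed ends in another base, and the miR-125 and miR-9 arms, which are also known to act on Lin28 transcripts or in neural cells.
let-7a-5p: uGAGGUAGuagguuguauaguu
let-7b-5p: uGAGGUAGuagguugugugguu
let-7c-5p: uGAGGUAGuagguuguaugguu
let-7d-5p: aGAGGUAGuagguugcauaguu
let-7e-5p: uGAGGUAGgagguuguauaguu
let-7f-5p: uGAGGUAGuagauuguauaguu
let-7g-5p: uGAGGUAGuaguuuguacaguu
let-7i-5p: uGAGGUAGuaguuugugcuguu
miR-98-5p: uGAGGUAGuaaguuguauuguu
let-7j: uGAGGUAUuaguuugugcuguuau
miR-125a-5p: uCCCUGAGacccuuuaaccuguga
miR-125b-5p: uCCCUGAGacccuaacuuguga
miR-9-5p: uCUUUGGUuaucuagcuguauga
Of the 36 pairs among the 9 sequences with the common seed, 4 differ at 1 base, namely let-7a with let-7c, let-7e and let-7f, and let-7b with let-7c. Reads were mapped with 1 mismatch allowed, so counts of these close relatives are less certain than their sum.

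A let-7 seed match is the DNA word CTACCTC on the transcript's own strand. In the longest annotated 3′ UTR of each gene (GENCODE vM21), Lin28a held 2 such words, Lin28b 4, Trim71 4, Ago2 3 and Tarbp2 1, and the UTRs of Drosha, Dgcr8, Dicer1, Xpo5 and Zcchc11 held 0. Of 20620 UTRs in the annotation, 9.12% held the word. Among UTRs of 0.8 to 1.25 times the member's length, at least as many words were found in 2.07% of 2607 for Lin28a, 0.297% of 1346 for Lin28b, 0.482% of 830 for Trim71, 1.3% of 77 for Ago2 and 2.95% of 1896 for Tarbp2. The windows of 25 bases around the words in Lin28a, Lin28b and Trim71 are shown because these are the transcripts through which the Lin28 and let-7 loop is known to run. Capitals mark the word, positions are on GRCm38, and all lie on the minus strand.
Lin28a, chr4:134005181-134005205: cctgttgaaCTACCTCatttttgcc
Lin28a, chr4:134004543-134004567: gccacaaacCTACCTCactgtgttg
Lin28b, chr10:45381014-45381038: gcgggaagtCTACCTCatgcaagca
Lin28b, chr10:45378640-45378664: tgttagtaaCTACCTCtgagtttga
Lin28b, chr10:45378468-45378492: agcacatggCTACCTCccagctacc
Lin28b, chr10:45377052-45377076: tggcaccgaCTACCTCttcaatcac
Trim71, chr9:114512464-114512488: gcctaagtcCTACCTCagcttaaat
Trim71, chr9:114512368-114512392: aatttctatCTACCTCaactctttg
Trim71, chr9:114509039-114509063: atggattttCTACCTCaattttggc
Trim71, chr9:114509013-114509037: aaaagttgtCTACCTCacgtcggca
An A follows the word in 2 of 2 windows of Lin28a, 4 of 4 of Trim71 and 1 of 4 of Lin28b. Lin28a, Lin28b and Trim71 each also held 1 miR-125 seed match (CTCAGGG), Dicer1 held 1 and Ago2 2. This word is found in 13.3% of all UTRs, and in 24.6%, 32.7% and 37.8% of UTRs of like length for Lin28a, Lin28b and Trim71. For miR-9 the word searched was CCAAAGA, which pairs with UCUUUGG and so starts 1 base before the printed seed CUUUGGU. Trim71 alone of the 10 genes held this word, found in 14% of all UTRs and 45.2% of those of its length. The match to the seed itself, ACCAAAG, was not searched for, so miR-9 seed matches were not counted. A match of letters is not shown to be a site that is used.

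LIN28 proteins are known to recognise GGAG in the loop of let-7 precursors. On the hairpin's own strand the word lay between the mature arms in 9 of 11 let-7 hairpins with both arms located in the RefSeq sequence, against 53 of 645 mouse hairpins in all (8.22%). The loops of let-7g, let-7f-1, let-7a-2 and let-7c-1 are shown as hairpins with the word in capitals, and those of let-7b and let-7c-2 as the 2 without it.
let-7g, chr9:106178840-106178927: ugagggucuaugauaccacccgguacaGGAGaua
let-7f-1, chr13:48537829-48537917: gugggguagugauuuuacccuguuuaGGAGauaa
let-7a-2, chr9:41536716-41536811: uagaguuacaucaagGGAGauaa
let-7c-1, chr16:77599657-77599750: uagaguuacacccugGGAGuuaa
let-7b, chr15:85707319-85707403: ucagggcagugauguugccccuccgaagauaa
let-7c-2, chr15:85706603-85706697: uugggcucugccccgcucugcgguaa
The coordinates are those of the whole hairpin on GRCm38, and let-7f-1 lies on the minus strand whereas the others lie on the plus strand.

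Lin28a (ENSMUSG00000050966, chr4:134003330-134018841, minus strand) was the member with the widest range. It had 22438 counts in wild-type ESC, 14412 in Htt-null ESC, 2913 in the wild-type-labelled RA-DIFF library and 713 in the Htt-null-labelled RA-DIFF library. After TMM scaling, which corrects library totals for a few dominant genes, these were 259, 221, 26.0 and 7.24 CPM. Both ESC libraries thus stood far above both RA-DIFF libraries, and the Htt-null-labelled RA-DIFF library was the lowest of the 4. Comparing Htt-null with wild type, the log2 ratio in ESC was -0.23, and that in RA-DIFF was -1.84 (95% counting interval -1.96 to -1.73), the latter 3.58-fold lower. From ESC to RA-DIFF the log2 ratio was -3.31 in wild type and -4.93 in Htt-null. Counting intervals throughout are exact binomial intervals on the reads and cover counting error only.

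Lin28b (ENSMUSG00000063804, chr10:45376620-45470201, minus strand) did not follow its paralogue. It had 3294 and 2887 counts in wild-type and Htt-null ESC, 4885 in the wild-type-labelled RA-DIFF library and 1494 in that labelled Htt-null, or 38.0, 44.3, 43.6 and 15.2 CPM. A single library stood apart, the Htt-null-labelled RA-DIFF library, and the other 3 lay between 38.0 and 44.3 CPM. The log2 ratio of RA-DIFF to ESC was 0.20 in wild type and -1.54 in Htt-null, and between genotypes it was 0.22 for ESC and -1.52 for RA-DIFF (95% counting interval -1.61 to -1.44). With the RA-DIFF labels exchanged, the low library counts as wild type, with ratios of RA-DIFF to ESC of -1.32 in wild type and -0.02 in Htt-null.

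The balance of the Lin28 pair differed between stages. Of the reads on either gene, Lin28a took 87.2% (95% Wilson interval 86.8 to 87.6) in wild-type ESC, 83.3% (82.7 to 83.9) in Htt-null ESC, 37.4% (36.3 to 38.4) in the wild-type-labelled RA-DIFF library and 32.3% (30.4 to 34.3) in that labelled Htt-null. This share uses no scaling between libraries. Per kilobase of annotated exon, the Lin28a level was 64.8 CPM against 4.19 for Lin28b in wild-type ESC, and 6.51 against 4.81 in the wild-type-labelled RA-DIFF library. In the Htt-null-labelled RA-DIFF library the levels per kilobase were 1.81 and 1.67 CPM.

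Trim71 (ENSMUSG00000079259, chr9:114507133-114564369, minus strand) had 16159, 10314, 2895 and 2048 counts in wild-type ESC, Htt-null ESC and the RA-DIFF libraries labelled wild type and Htt-null, or 186, 158, 25.8 and 20.8 CPM. Its levels separated by stage and hardly by genotype label. RA-DIFF to ESC log2 ratios were -2.85 in wild type and -2.93 in Htt-null, while Htt-null to wild-type ratios were -0.24 in ESC and -0.31 in RA-DIFF.

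**Figure D1:**
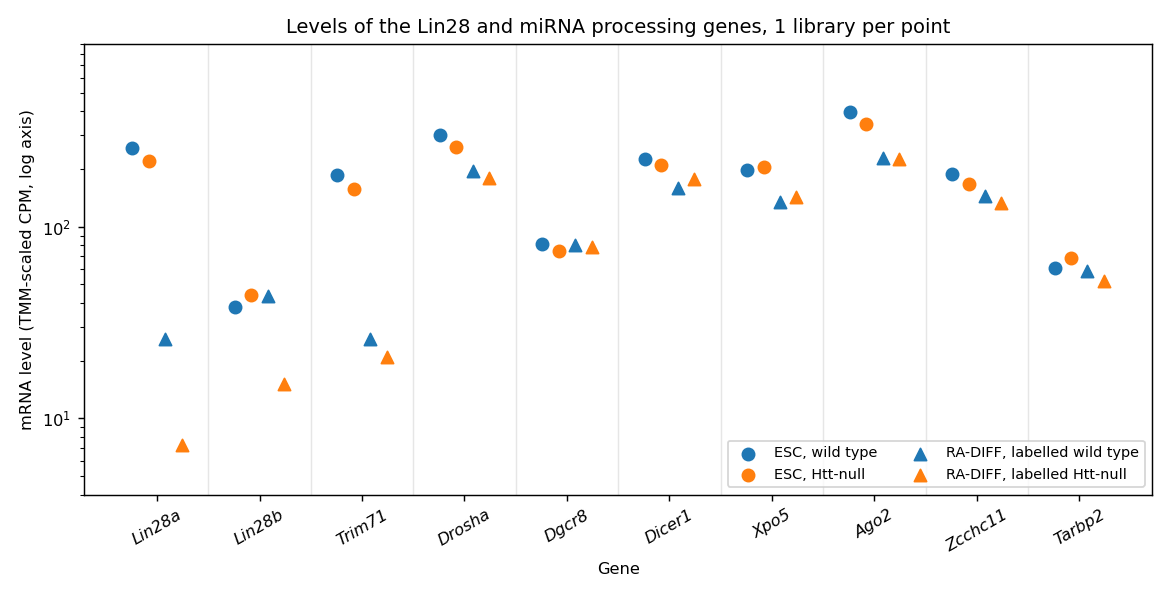
mRNA level of the 10 genes in each of the 4 RNA-seq libraries, as TMM-scaled CPM on a log axis, with circles for ESC, triangles for RA-DIFF, blue for wild type and orange for Htt-null as labelled, and 1 library per point. Lin28a spans 259 to 7.24 CPM and Trim71 186 to 20.8 CPM, Lin28b has 3 points at 38.0 to 44.3 CPM and 1 at 15.2 CPM, and the 7 processing genes stay within a narrow band.

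The 7 processing genes kept to a narrow range. Drosha, the nuclear RNase III, had 26144 and 16939 counts in wild-type and Htt-null ESC and 21804 and 17658 in the RA-DIFF libraries labelled wild type and Htt-null, or 301, 260, 195 and 179 CPM. Its RNA-binding partner Dgcr8 had 7067, 4867, 9018 and 7759 counts in the same order, and 81.5, 74.6, 80.5 and 78.8 CPM, the flattest profile of the 10. Xpo5, the hairpin exporter, had 17109, 13446, 15114 and 14115 counts, or 197, 206, 135 and 143 CPM. These genes of the nuclear steps thus lay higher in ESC for Drosha and Xpo5 and nearly level for Dgcr8.

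Among the cytoplasmic members, Dicer1 had 19600 and 13757 counts in wild-type and Htt-null ESC and 17760 and 17531 in the RA-DIFF libraries labelled wild type and Htt-null, or 226, 211, 158 and 178 CPM. Tarbp2, the double-stranded RNA-binding partner of DICER1, had 5280, 4479, 6587 and 5132 counts, or 60.9, 68.7, 58.8 and 52.1 CPM. Counts of Ago2, the Argonaute with slicing activity, were 34485, 22303, 25575 and 22355, or 398, 342, 228 and 227 CPM. Ago2 was thus higher in both ESC libraries, with RA-DIFF levels that all but coincided. The uridylyltransferase gene Zcchc11, named Tut4 in GENCODE vM21, had 16409, 10959, 16162 and 13125 counts, or 189, 168, 144 and 133 CPM.

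Per kilobase of exon, the order of mRNA levels in wild-type ESC ran from Lin28a (64.8 CPM) and Drosha (50.8) over Xpo5 (28.8), Ago2 (28.3), Zcchc11 (21.8) and Trim71 (20.0) to Dicer1 (13.5), Tarbp2 (13.4), Dgcr8 (10.6) and Lin28b (4.19). In the Htt-null-labelled RA-DIFF library it ran from Drosha (30.2) over Xpo5 (20.9), Ago2 (16.2), Zcchc11 (15.3), Tarbp2 (11.5), Dicer1 (10.6) and Dgcr8 (10.2) to Trim71 (2.23), Lin28a (1.81) and Lin28b (1.67). Lin28a led this order in wild-type ESC and came last but for Lin28b in the Htt-null-labelled RA-DIFF library, and with 1 library per condition no spread is available to separate neighbours. Dgcr8 overlaps Trmt2a and Ago2 overlaps Chrac1 on opposite strands. The strand option of the counting was not itself named, though the study states that defaults applied where nothing else was given. Reads in those overlaps are treated as uncertain. The Trmt2a counts were 3221 to 7536 and those of Chrac1 965 to 3957.

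A member was called when its absolute log2 ratio exceeded 0.75, the limit used by the study, and its average log2 CPM exceeded 0. Between Htt-null and wild-type ESC, 0 of 10 members were called, whereas 8.61% of all 15492 genes were (5.14% higher and 3.47% lower), and the members' log2 ratios ran from -0.24 to 0.22 with a median of -0.15 (all genes, -0.04). By the exact test of edgeR with an assumed dispersion of 0.1 or 0.01, added to the same limits, the count was also 0. Between the RA-DIFF libraries, 2 of 10 were called, Lin28a and Lin28b, both lower in the library labelled Htt-null. The background was 20.7% in either direction, 11.7% higher and 8.99% lower, so the share of members called in either direction was close to the background. The median of the members was -0.12 (all genes, -0.01), and the 7 processing genes ran from -0.17 to 0.17 with 0 called. With the RA-DIFF labels exchanged the ratios became 1.84 for Lin28a and 1.52 for Lin28b.

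With RA-differentiation, 3 of 10 members were called in wild type, Lin28a, Trim71 and Ago2, all lower in RA-DIFF, against a background of 60.1% in either direction, 33.9% higher and 26.1% lower. In Htt-null, 3 of 10 were called, Lin28a, Lin28b and Trim71, again all lower, against 59.2% in either direction, 34.3% higher and 24.8% lower. The members' share of 30% called lower was close to the background in that direction, and 0 of 10 were called higher. Their median log2 ratio was -0.53 in both genotypes, beside 0.12 and 0.17 for all genes, and 9 of 10 lay below 0 in each. The Ago2 ratio of -0.80 in wild type was just past the limit, at -0.59 in Htt-null it was inside, and it was not called in wild type with a limit of 1 or with the assumed dispersion of 0.1. Drosha (-0.63 and -0.53) and Xpo5 (-0.55 and -0.52) lay below 0 in both genotypes without reaching the limit. The 4 comparisons share libraries and are not independent of each other.

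The genes whose profiles over the 4 libraries were most like those of the 3 regulators were found by the Euclidean distance of log2 CPM centred on each gene's mean. For Lin28a these were Xist (distance 0.23), Platr15 (0.34) and Lad1 (0.37). The nearest to Lin28b were Galnt9 (0.13), A430057M04Rik (0.20) and Gm11423 (0.22), and those to Trim71 were Catsperg1 (0.11), Dnajc21 (0.11) and Kcnk5 (0.11). Galnt9, for example, had 4.22, 5.38, 4.71 and 1.74 CPM in wild-type ESC, Htt-null ESC and the RA-DIFF libraries labelled wild type and Htt-null, the same single low library as Lin28b. Lin28a and Lin28b were 3.47 apart and Lin28a and Trim71 1.64 apart on this scale, which rests on 4 points.

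The other genes of the miRNA pathway, a list of 19, were all past the expression limit. In ESC, 0 of 19 were called between Htt-null and wild type (all genes, 8.61%), by the ratio limits and with either assumed dispersion, and their median log2 ratio was -0.07. Between the RA-DIFF libraries 1 of 19 was called (all genes, 20.7%), namely Mov10, an RNA helicase associated with Argonaute, which had 2266 counts in the library labelled wild type and 3750 in that labelled Htt-null, a log2 ratio of 0.91. Mov10 was not called with a limit of 1 or with the assumed dispersion of 0.1. Of the list, 3 were called higher and 2 lower with RA-differentiation in wild type, and 3 higher and 2 lower in Htt-null, beside 33.9% higher and 26.1% lower in wild type and 34.3% and 24.8% in Htt-null for all genes. The highest ratios in wild type were those of Ago4, an Argonaute without slicing activity (167 to 2157 counts, log2 ratio 3.31), and Prkra, the other double-stranded RNA-binding partner of DICER1 (1635 to 6575, 1.64). The lowest ratios were those of Mov10 (22488 to 2266, -3.68) and Xpo1, a nuclear export receptor (99176 to 58002, -1.14). In Htt-null the ratios of these genes were 2.09, 1.61, -2.61 and -0.86.

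The 9 let-7 5p miRNAs with the common seed took 0.280% of all small RNA counts in wild-type ESC, 0.220% in Htt-null ESC, 0.118% in the wild-type-labelled RA-DIFF library and 0.156% in that labelled Htt-null, from sums of 36042, 26293, 30279 and 37848 counts. The RA-DIFF shares were set against a pair of dominant miRNAs, since the summed miR-10a-5p and miR-10b-5p made up 79.9% and 83.3% of the counts there and 0.438% and 0.293% in ESC. The scale of the small RNA libraries accordingly decides the direction of the comparison between stages. The TMM factors were 1.56 and 1.84 in wild-type and Htt-null ESC, and 0.697 and 0.4996 in the RA-DIFF libraries labelled wild type and Htt-null. Scaling by library size instead of TMM moved the median of all 687 miRNAs past the expression limit to -1.11 in wild type and -2.06 in Htt-null for RA-DIFF over ESC, from 0.03 and -0.21, to 0.19 from 0 for the genotypes in ESC, and to -0.48 from -0.03 for those in RA-DIFF.

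Make-up within the let-7 pool needs no scaling. In wild-type ESC let-7c-5p took 25.8% of the pool, let-7f-5p 24.4%, let-7g-5p 18.8% and let-7a-5p 14.5%. The let-7g-5p share was 16.3% in Htt-null ESC, 4.75% in the wild-type-labelled RA-DIFF library and 5.49% in that labelled Htt-null, so it was lower in both RA-DIFF libraries than in either ESC library. The share of let-7c-5p was 36.3% in Htt-null ESC, 39.2% in the wild-type-labelled RA-DIFF library and 29.8% in that labelled Htt-null. A share of 12.3% for let-7i-5p in the Htt-null-labelled RA-DIFF library stood apart from 7.81%, 8.10% and 7.21% in wild-type ESC, Htt-null ESC and the wild-type-labelled RA-DIFF library.

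**Figure D2:**
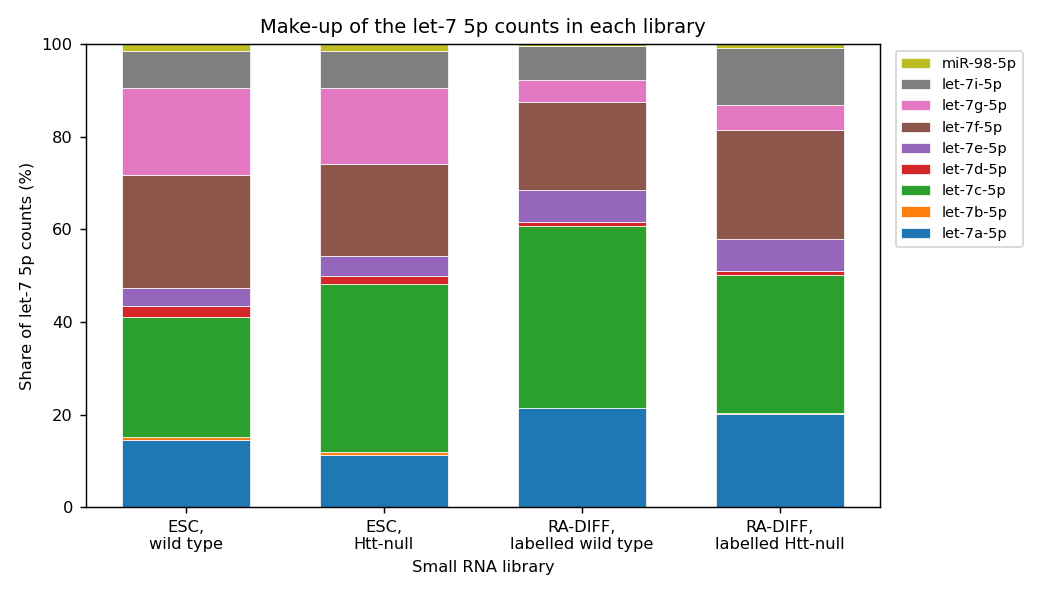
Share of each let-7 5p miRNA and miR-98-5p in their summed counts, in percent, as stacked bars for the 4 small RNA libraries. The let-7g-5p block is 18.8% and 16.3% in ESC and 4.75% and 5.49% in RA-DIFF, and let-7c-5p is the largest block in every library.

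Between Htt-null and wild-type ESC, 4 of the 9 let-7 5p miRNAs were called, all lower, against 38.7% of all miRNAs in either direction and 15% lower. All 9 ratios lay below 0 under TMM, from -1.07 to -0.09 with a median of -0.67 (all miRNAs, 0), and let-7c-5p turned to 0.14 under library size. The 4 were let-7a-5p (5225 and 2955 counts, -0.95), let-7d-5p (850 and 440, -1.07), let-7f-5p (8787 and 5236, -0.87) and let-7g-5p (6792 and 4287, -0.79). Under library size 1 of the 4, let-7d-5p, remained past the limit, beside 8.88% of all miRNAs lower.

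Between the RA-DIFF libraries 8 of 9 were called, all higher in the library labelled Htt-null, against 26.6% in either direction and 14.7% higher. Their median log2 ratio was 1.03 (all miRNAs, -0.03). The highest ratios were those of let-7i-5p (2184 and 4674 counts, 1.66) and miR-98-5p (143 and 291 counts, 1.57), and let-7c-5p (11880 and 11281, 0.49) was the one not called. By library size 2 of 9 were called, let-7i-5p and miR-98-5p, beside 7.28% of all miRNAs higher on that scale, and the median was 0.55 (all miRNAs, -0.48). Of the 2 let-7 miRNAs with a hairpin lacking the GGAG word, let-7b-5p (33 and 47 counts) had a ratio of 1.03, at the median, and let-7c-5p had the lowest, 0.49, and comes from 1 hairpin with and 1 without it.

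With RA-differentiation in wild type 4 of 9 were called, all lower, against 66.7% of miRNAs in either direction, 34.6% higher and 32% lower, and the median was -0.43 (all miRNAs, 0.03). In Htt-null 5 were higher and 1 lower, against 71.2% in either direction, 30.7% higher and 40.5% lower, and the median was 1.10 (all miRNAs, -0.21). By library size the medians were -1.59 and -0.78, and by library size without miR-10a-5p and miR-10b-5p they were 0.72 and 1.79. The calls in wild type became 6 lower on the first of these scales, where 57.5% of all miRNAs were lower, and 4 higher and 2 lower on the second, where 59.8% were higher and 18.8% lower. Those in Htt-null became 5 lower and 0 higher on the first, where 74.2% were lower. On the second they became 7 higher and 0 lower, where 43.8% were higher and 28.5% lower. The sign of either median thus rests on the scale. Set against the median of all miRNAs, the TMM values were -0.46 in wild type and 1.31 in Htt-null, a difference that a change of scale leaves nearly as it is by construction. In wild type, let-7a-5p (5225 to 6460 counts, 0.48), let-7c-5p (9301 to 11880, 0.52) and let-7e-5p (1447 to 2060, 0.68) lay above 0 under TMM and below it under library size. The counts of let-7b-5p (253 to 33, -2.70), let-7g-5p (6792 to 1438, -2.07) and miR-98-5p (571 to 143, -1.81) were lower on either scale.

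**Figure D3:**
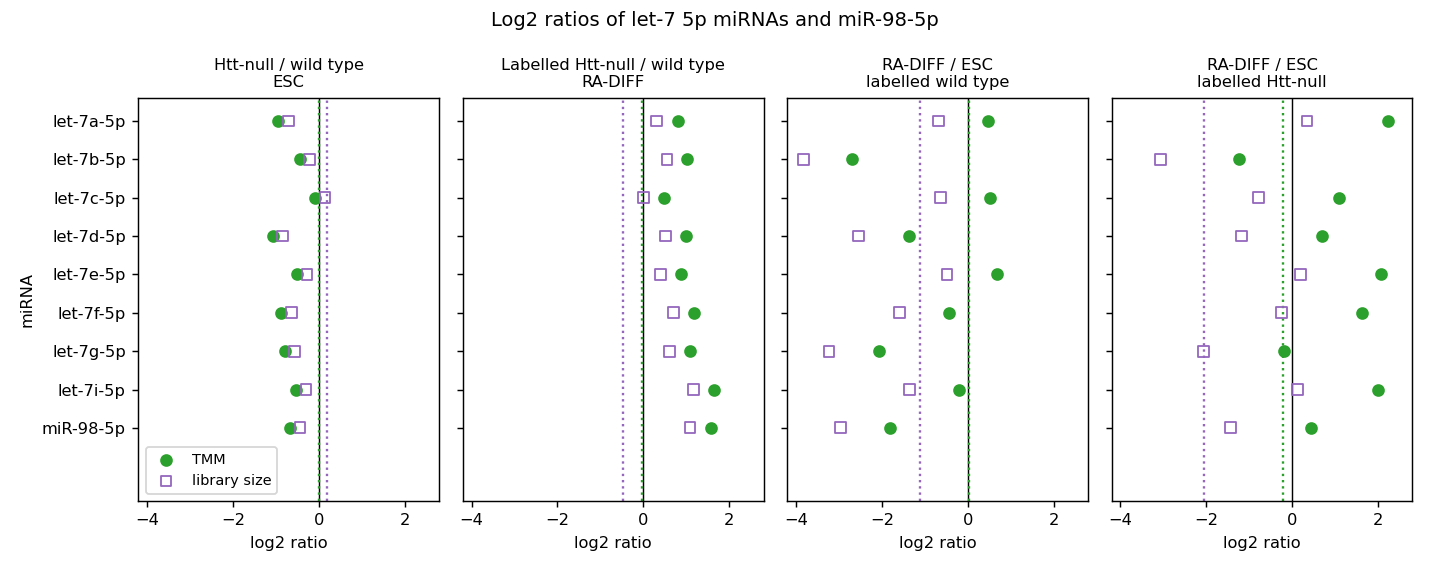
Log2 ratios of the 8 let-7 5p miRNAs and miR-98-5p in the 4 comparisons, under TMM (green circles) and library size (purple squares), with dotted lines in the same colours at the median of all 687 miRNAs. Between the RA-DIFF libraries every point lies above the median of its scale, and in the RA-DIFF to ESC comparison of Htt-null the median moves from 1.10 to -0.78 with the scale, with let-7c-5p, let-7d-5p, let-7f-5p and miR-98-5p changing sides of 0.

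Set side by side, the log2 ratios of Lin28a, Lin28b and the let-7 5p median were -0.23, 0.22 and -0.67 for the genotypes in ESC, and -1.84, -1.52 and 1.03 for those in RA-DIFF. For RA-DIFF over ESC they were -3.31, 0.20 and -0.43 in wild type and -4.93, -1.54 and 1.10 in Htt-null. Under TMM and the deposited labels the let-7 median lay above 0 in the 2 comparisons in which both Lin28 genes were called lower, and below 0 in the 2 in which Lin28b was not called. This arrangement did not hold on every scale, since the let-7 value for Htt-null was -0.78 by library size, and that for wild type was 0.72 by library size without the miR-10 pair. It did not hold either with the RA-DIFF labels of both assays exchanged. Lin28b and the let-7 median for RA-DIFF over ESC were then -1.32 and 0.75 in wild type and -0.02 and 0.33 in Htt-null, so that the let-7 median also lay above 0 where Lin28b was not called. With the labels of the RNA-seq libraries alone exchanged, Lin28a, Lin28b and the let-7 median between the RA-DIFF libraries would be 1.84, 1.52 and 1.03, all in 1 direction. The 4 comparisons share libraries, and these values are a description.

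The genes that harbour let-7 hairpins were also measured. Genes that span a let-7 hairpin on its own strand were Wdr82 (let-7g), Huwe1 (let-7f-2), 2610203C20Rik (let-7a-2) and 6720427I07Rik (let-7d). Wdr82 was nearly level, with log2 ratios of 0.02 and 0.18 for RA-DIFF over ESC in wild type and Htt-null, while Huwe1 was lower at -1.08 and -0.95. The non-coding gene 2610203C20Rik had 153 and 34 counts in wild-type and Htt-null ESC, and 34901 and 28413 in the RA-DIFF libraries labelled wild type and Htt-null, with a log2 ratio of 7.45 in wild type. From the same locus, let-7a-2-3p, the passenger arm that marks it apart from the other let-7a hairpin, had 0 counts in either ESC library and 24 and 47 in RA-DIFF, at least 9.01-fold and 28.4-fold higher under TMM and 4.02-fold and 7.72-fold by library size. These bounds set a count of 0 to the 3 counts it allows in a library. Counts of let-7c-1-3p were 1, 0, 250 and 219 in the same order, and those of let-7j 0, 0, 63 and 156. Of the 11 let-7 and miR-98 3p arms in the table, 8 passed the expression limit, and between the RA-DIFF libraries 6 of these 8 were called higher in the library labelled Htt-null, beside 14.7% of all miRNAs. By library size 2 of the 8 were called higher, let-7a-2-3p (0.97) and let-7g-3p (10 and 26 counts, 1.25), beside 7.28% of all miRNAs. Among the others, let-7i-3p rested on 4 and 7 counts, and its counting interval under TMM ran from -0.61 to 3.59.

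Levels of miR-125b-5p and miR-9-5p differed between the stages. MiR-125b-5p had 1768 and 755 counts in wild-type and Htt-null ESC and 10714 and 10056 in RA-DIFF, a log2 ratio of 2.77 in wild type (1.61 by library size). The counts of miR-125a-5p were 17376, 10334, 17243 and 16637, with ratios of -0.87 for the genotypes in ESC and 0.51 for those in RA-DIFF (-0.64 and 0.03 by library size). MiR-9-5p, abundant in neural cells, had 8956, 9546, 201355 and 298424 counts, and its ratio between the RA-DIFF libraries was 1.13 (0.65 by library size).

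Genes known as let-7 targets, a list of 15, were all past the expression limit. Between Htt-null and wild-type ESC 1 of 15 was called (all genes, 8.61%), namely Ccnd2, a cyclin of the G1 phase, with 2747 and 989 counts and a log2 ratio of -1.06, and the median was -0.18. Between the RA-DIFF libraries 3 of 15 were called, all lower in the library labelled Htt-null, and the median was -0.22. They were Mycn, a MYC family transcription factor (8151 and 3566 counts, -1.01), Igf2bp1, an mRNA-binding protein of embryonic cells (26803 and 12324, -0.93), and Arid3b, a DNA-binding protein (2582 and 1332, -0.77). The share of 20% equals that of the members and is close to the background of 20.7%. With a limit of 1, Mycn remained called and the other two did not, and with the assumed dispersion of 0.1 neither Ccnd2 nor these 3 were called.

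With RA-differentiation the let-7 targets had no common direction. In wild type 4 of 15 were called higher and 5 lower, a share of 60% beside 60.1% of all genes. In Htt-null 5 were called higher and 6 lower, a share of 73.3% beside 59.2%. Ccnd2 had the highest ratio in wild type (2747 to 113126 counts, log2 ratio 4.99), followed by Plagl2, a zinc finger protein (1768 to 12582, 2.46). Arid3b (9120 to 2582, -2.19) and Mycn (12473 to 8151, -0.98) had the lowest ratios. In Htt-null the ratios of these 4 were 6.59, 2.01, -2.75 and -1.98.

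**Figure D4:**
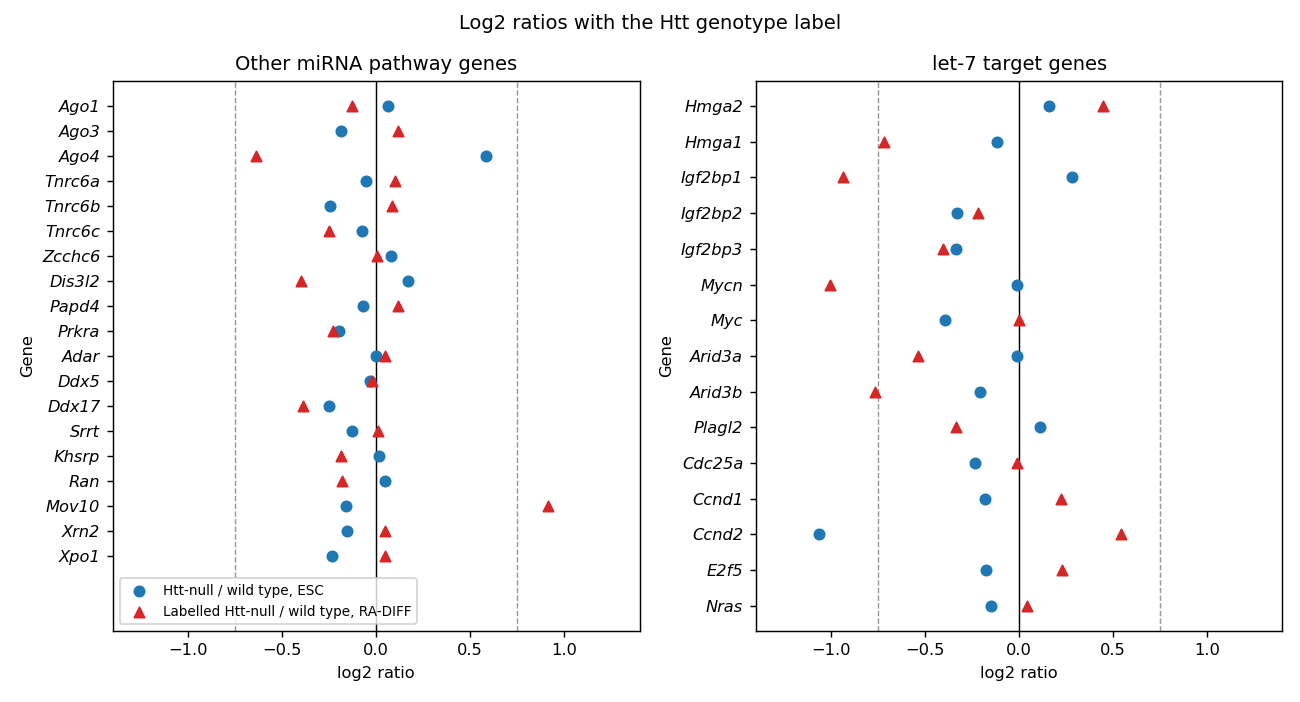
Log2 ratios of Htt-null to wild type, as labelled, in ESC (blue circles) and RA-DIFF (red triangles) for 19 other miRNA pathway genes and 15 let-7 target genes, with dashed lines at -0.75 and 0.75. Mov10 at 0.91 is the pathway gene past the limit, and Mycn, Igf2bp1 and Arid3b in RA-DIFF and Ccnd2 in ESC are the targets past it.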

How the data were processed

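Poly-A RNA (50 base paired-end reads, dUTP strand-specific) and small RNA were each sequenced from 4 conditions, with 1 library each. For RNA-seq the authors aligned reads to GRCm38.p4 with TopHat2 2.0.14 guided by GENCODE M6, counted genes with HTSeq 0.6.1 in the intersection-nonempty mode and deposited raw counts. For small RNA the authors removed adapters (cutadapt 1.3), aligned the remaining reads of 16 to 25 bases to the mature miRNAs of miRBase 21 (BWA 0.7.5a-r418), kept unique alignments with SAMtools 0.1.18 and deposited raw counts per miRNA. Positions of miRNAs are those of RefSeq.

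TMM factors (edgeR 4.0.16, R 4.3.3) were taken from all 4 libraries of each assay, and log2 CPM used a prior count of 2. With 1 library per condition no dispersion can be estimated within a condition, and edgeR's quasi-likelihood method was left unused. An additive model of genotype and stage, which would leave some spread to estimate from, was not run. Calls required an absolute log2 ratio above 0.75 and an average log2 CPM above 0. Alternatives were DESeq2 1.42.0 size factors, library size, other limits and prior counts, edgeR's exact test with assumed dispersions, and exchanged RA-DIFF labels. Calling was tested on simulated counts with known changes and counting error only. That simulation cannot measure false calls between real libraries. Tables and figures were made with Python 3.11.15, pandas 2.3.3, scipy 1.17.1 and matplotlib 3.10.9. UTRs of at least 50 bases were searched. A count of 0 allows 3 counts, or 0.0271 to 0.0472 CPM in RNA-seq and 0.117 to 0.250 CPM in small RNA libraries.

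The 10 genes, the lists and the alternatives were chosen with earlier results of these data known. Genes named from the 2 lists are those past the limit in either Htt comparison and the 2 largest rises and falls with RA in wild type. The other named genes are Htt, the let-7 host genes, the marker lists and the 3 most similar profiles of each regulator. One hairpin sequence is not reported here.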

Additional observations from a re-analysis of the deposited data

Results flagged for a closer look

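Results are given here where an effect pointed one way in 1 stage or genotype and the other way in the other, with counting intervals that excluded 0 in each for single genes. With 1 library per condition none of these differences was tested. Lin28b had a log2 ratio of Htt-null to wild type of 0.22 in ESC and -1.52 in RA-DIFF, a difference of -1.74, and the same 4 libraries give a difference of -1.74 between its RA-DIFF to ESC ratios of 0.20 in wild type and -1.54 in Htt-null. Smaller opposite ratios were those of Dicer1 (-0.10 in ESC and 0.17 in RA-DIFF, a difference of 0.27) and Tarbp2 (0.17 and -0.17, a difference of -0.35). For the genotypes the let-7 5p median was -0.67 (ESC) and 1.03 (RA-DIFF), a difference of 1.70, with 9 of 9 miRNAs on opposite sides of 0 under TMM. For RA-DIFF over ESC it was -0.43 in wild type and 1.10 in Htt-null, a difference of 1.53, with 4 of 9 on opposite sides under TMM, whereas by library size both medians lay below 0 (-1.59 and -0.78). All of these rest on the RA-DIFF labels, which the Htt counts go against in the RNA-seq libraries and the study's listed directions go against in the small RNA libraries.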

How the results depend on the processing

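No paired test of RA-DIFF against ESC across the lines was run. Leaving out a library would remove a condition, because each condition has 1 library. The counts of members called stayed within 1.5 times of 0, 2, 3 and 3 under DESeq2 size factors, library size, no expression limit, a limit of 1, a prior count of 0.5 and the exact test with assumed dispersions of 0.1 and 0.01, and the 120 member ratios recomputed under the other scalings and prior count shifted by at most 0.07. With the RA-DIFF labels exchanged the 2 members called between the RA-DIFF libraries, Lin28a (1.84) and Lin28b (1.52), turned to higher in Htt-null, as did the 3 let-7 targets, and the 1 pathway gene turned to lower, and with RA-differentiation 4 members were called in wild type and 2 in Htt-null. The let-7 5p median for the genotypes in RA-DIFF turned to -1.03, and for RA-DIFF over ESC it became 0.75 in wild type and 0.33 in Htt-null. Scaling moved the let-7 5p medians. By library size they were -0.44 for the genotypes in ESC, 0.55 for those in RA-DIFF, -1.59 for RA-DIFF over ESC in wild type and -0.78 in Htt-null, where the sign turned. By library size without miR-10a-5p and miR-10b-5p they were -0.44, 0.83, 0.72, where the sign turned in wild type, and 1.79. DESeq2 size factors gave -0.78 for the genotypes in ESC and 1.36 for RA-DIFF over ESC in Htt-null. A change of scale shifts all ratios of a comparison by about the same amount, so the place of let-7 relative to the median of all miRNAs is no check of these signs. Counts called in the other miRNA lists by library size were added after seeing the data. Of the counts called in the pathway and target lists, 11 recomputed values were lower by more than 1.5 times, all under the limit of 1, the assumed dispersion of 0.1 or exchanged labels. Among the 9 let-7 5p miRNAs depth limits let-7b-5p most, with 33 and 47 counts in RA-DIFF, and several 3p arms and non-canonical miRNAs had fewer.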

Other observations

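Some miRNAs are known to bypass a step of the canonical route. MiR-451a, which is cut by AGO2 and not by DICER1, had 17, 20, 2 and 4 counts in wild-type ESC, Htt-null ESC and the RA-DIFF libraries labelled wild type and Htt-null. MiR-320-3p, which does not need the DROSHA and DGCR8 complex, had 3262, 4046, 4714 and 3437 counts, with log2 ratios of 0.19 for the genotypes in ESC and 0.10 for those in RA-DIFF. MiR-484, also independent of that complex, had 8046, 8205, 5042 and 4082 counts, and ratios of -0.10 and 0.26. The mirtron miR-877-5p, cut out by splicing, had 137, 191, 134 and 76 counts, and ratios of 0.35 and -0.25. Of the 4 of these 5 non-canonical miRNAs past the expression limit, miR-1224-5p (45, 134, 9 and 11 counts, 1.41 in ESC) was the one called for the genotypes in ESC, and 0 were called between the RA-DIFF libraries, beside 38.7% and 26.6% of all miRNAs called in either direction. By library size the ratios of miR-320-3p and miR-484 between the RA-DIFF libraries were -0.38 and -0.23.

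The main miRNA clusters of stem cells differed in direction. In the miR-290 cluster, from miR-290a to miR-295, 14 of 16 miRNAs past the expression limit were called higher between the RA-DIFF libraries, beside 14.7% of all miRNAs (median log2 ratio 1.35, Htt-null label over wild-type label), and 10 were by library size, beside 7.28%. All 16 were called lower in RA-DIFF than in ESC in both genotypes on either scale, beside 32% and 40.5% of all miRNAs in wild type and Htt-null under TMM, and 57.5% and 74.2% by library size. The miR-302 cluster was called higher in Htt-null ESC for 8 of 8 miRNAs, with a median of 1.78, beside 23.7% of all miRNAs. Between the RA-DIFF libraries 7 of 8 were called lower under the Htt-null label, with a median of -1.15, beside 11.9%. By library size the counts were also 8 and 7, beside 30.9% of all miRNAs higher in ESC and 32.8% lower in RA-DIFF. In the miR-17-92 cluster the genotype medians were 0.61 in ESC and -0.32 in RA-DIFF, with 2 called higher in ESC (all miRNAs, 23.7%) and 0 of 12 called in RA-DIFF (all miRNAs, 26.6% in either direction). These counts rest on the scale, since by library size the medians were 0.84 and -0.79, with 8 called higher in ESC (all miRNAs, 30.9%) and 7 called lower in RA-DIFF (all miRNAs, 32.8%).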
